A study of Drosophila melanogaster with 42 samples.

Results

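MOF and its product, histone H4 acetylated at lysine 16 (H4K16ac), were compared on the X chromosome of Drosophila melanogaster embryos of 3-4 h. The members were all X-linked regions of the MOF list and of the H4K16ac list made from the same kind of MNase-digested chromatin, 475 MOF and 863 H4K16ac regions, which are 1338 of the 2037 regions that these 2 lists hold and 1338 of 18571 regions in the 12 lists of the series. The study measured MSL2, MOF, H4K16ac and H3K36me3 by chromatin immunoprecipitation and sequencing (ChIP-seq) at 3-4 h and at 11-12 h, in 42 samples that include inputs. Each group used here is whole embryos of 1 stage, fixed with formaldehyde, with 3 samples each for MOF and for H4K16ac at 3-4 h (replicates D to F in both, digested with 0.9 units of MNase per g of embryos) and 3 matching inputs. Set beside them were MSL2 on MNase chromatin (3 samples, replicates A to C), H3K36me3 and H4K16ac on sonicated chromatin (2 samples each, replicates A and B), all of 3-4 h, and MOF and MNase H4K16ac of 11-12 h (3 samples each, 2.9 units of MNase per g). The MOF antibody was a laboratory stock and the H4K16ac antibody a commercial one. The labels name no strain, genotype or sex of the embryos, and an embryo holds many cell types.

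Every list is the authors' own and pools the replicates of its group, and it gives chromosome, start and end with no score, strand or read count. No value therefore has a replicate error, the depth is unknown, and a base outside a list is a base not called, not a measured absence. Brackets hold 95% intervals that cover counting error over regions or genes only, and regions and genes lie beside each other along the chromosome and are not replicates. Positions are on dm6 and count from 1.

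MOF is the acetyltransferase that places the acetyl group on lysine 16 of histone H4. In Drosophila males it works in the MSL complex, whose subunit MSL2 and noncoding RNAs roX1 and roX2 bring it to genes of the single X, and this acetylation loosens chromatin and goes with raised transcription of that X. On all chromosomes MOF also belongs to the NSL complex, which sits at promoters of housekeeping genes. H3K36me3 marks the bodies of transcribed genes and is bound by the chromodomain protein MSL3 of the complex.

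The first question was how much of the X carried enzyme and product together. Of the length called in either list, 2.87 Mb were under both, 0.462 Mb under MOF only and 1.05 Mb under H4K16ac only. Thus 86.1% of the MOF length lay under H4K16ac and 73.2% of the H4K16ac length lay under MOF, on a chromosome of which MOF covered 14.2% and H4K16ac 16.8%. On the autosomal arms 0.00968 Mb were under both, 0.0743 Mb under MOF only and 1.00 Mb under H4K16ac only, so that 11.5% of the MOF length and 0.956% of the H4K16ac length were shared. With the H4K16ac list of sonicated chromatin, which comes from other samples, 80.0% of the X-linked MOF length lay under H4K16ac. Over the 23 full windows of 1 Mb along the X the shared part of the MOF length ranged from 76.6% to 91.8% (median 85.1%) and that of the H4K16ac length from 60.2% to 88.3% (median 74.2%). The amount called varied more than the shared part, from 43.7 to 265.7 kb of MOF and from 42.0 to 318.2 kb of H4K16ac per window.

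**Figure D1:**
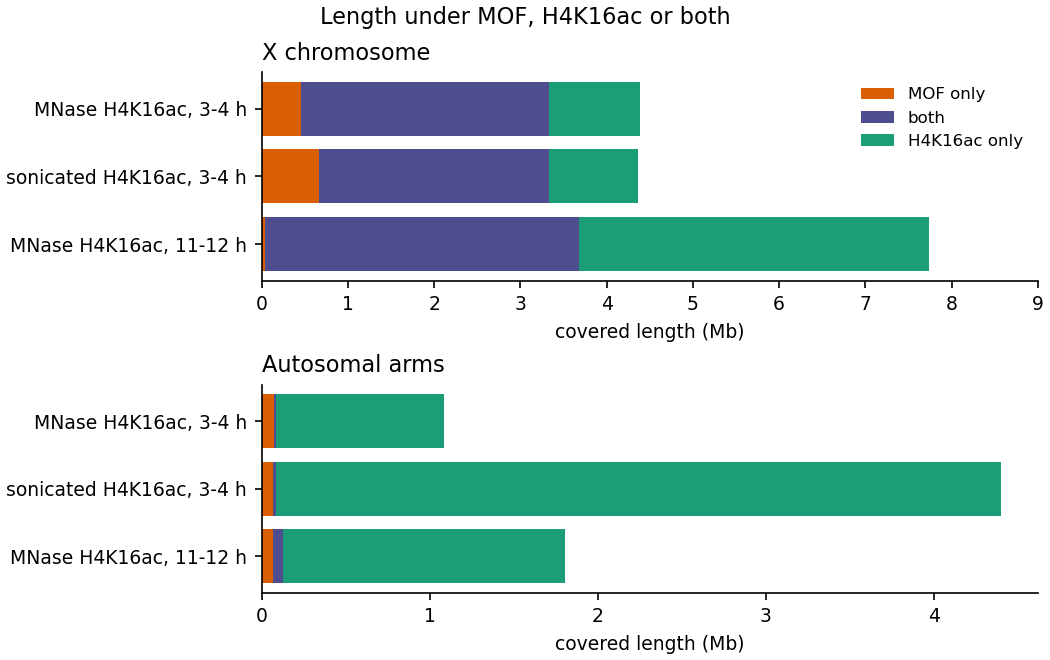
Covered length in Mb on the X chromosome (upper panel) and on the autosomal arms (lower panel), split into MOF only, both lists and H4K16ac only; each bar sets the MOF list of a stage against the H4K16ac list named beside it. On the X at 3-4 h the shared 2.87 Mb make up most of each bar, on the autosomes nearly all of the length is H4K16ac only, and at 11-12 h the X has more H4K16ac-only length.

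Counted as regions, nearly every X-linked MOF region held acetylation, while 256 of the 863 acetylated regions held no MOF. At an overlap of at least 1 bp, 455 of 475 X-linked MOF regions held H4K16ac (95.8%, 93.6 to 97.3), against 8 of 40 autosomal ones (20.0%, 10.5 to 34.8). Of the H4K16ac regions, 607 of 863 on the X held MOF (70.3%, 67.2 to 73.3), against 9 of 646 on the autosomes (1.39%, 0.735 to 2.63). Both differences passed a two-sided exact test (Fisher), with p adjusted by Benjamini-Hochberg for the 4 tests made: 75.8 points for MOF regions (60.9 to 85.4, adjusted p = 1.09e-29) and 68.9 points for H4K16ac regions (65.6 to 72.0, adjusted p = 2.95e-195). The test takes neighbouring regions of 1 pooled list per mark as units, so its p measures no spread between samples. Both lists are far denser on the X, with 3.33 Mb of MOF and 3.92 Mb of H4K16ac there against 0.0839 and 1.01 Mb on the autosomal arms, and the part of this density in the differences was not tested. The smallest overlap that put a MOF region in the shared class was 38 bp and the next 171 bp, and the nearest H4K16ac region to any of the 20 MOF regions without overlap lay 439 bp away.

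The 2 lists did not trace the same outlines. Of the 475 MOF regions, 117 lay wholly inside H4K16ac and 267 were covered to at least 90%, with a median cover of 91.6% (quartiles 76.2% and 99.9%). In the other direction 230 of the 863 H4K16ac regions lay wholly inside MOF. A MOF region often held several shorter acetylated regions: 285 held 1 and 170 held 2 or more, up to 5, whereas 59 H4K16ac regions spanned 2 or more MOF regions. The MOF regions that held H4K16ac had a median width of 5622 bp and the 20 others of 1578 bp, and the H4K16ac regions that held MOF had a median of 4254 bp and the 256 others of 1529.5 bp. The narrowest region either list holds is 1000 bp, and 4 of the 20 MOF regions and 81 of the 256 H4K16ac regions were at that width.

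How far acetylation reached past MOF was measured at the 950 edges of the X-linked MOF regions, as the distance from the edge to the end of the H4K16ac there, stopped where the next MOF region began. The 910 edges of regions with H4K16ac divided into 568 that H4K16ac passed (62.4%), 339 that it fell short of and 3 where both ended at the same base. The median reach was 98.0 bp (56.0 to 184 bp by the binomial interval of a median), with quartiles of -224 and 719 bp, where a value below 0 is a stop inside the MOF region. Where H4K16ac passed the edge it did so by a median of 499 bp, by over 1 kb at 188 edges, by over 5 kb at 14 and by over 10 kb at 1. Where it stopped short the median was -381 bp, and 76 edges were short by over 1 kb. Acetylation passed both edges of 188 MOF regions, 1 edge of 192 and neither edge of 75. Of the 568 edges passed, 148 were stopped at the next MOF region. Their value is a gap between MOF regions and not an end of H4K16ac, and without the stop the median reach was 188 bp. A shortfall cannot be longer than its MOF region. Within these limits most values lay near the MOF edge, on either side of it, with a longer tail outward. The median moved with the processing, and was 431 bp with the sonicated list, 291.5 bp with regions within 1 kb joined and 50.0 bp in the widest 50% of each list.

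Edges inside genes and edges between them had different values, which were not tested since edges are not replicates. At edges inside a protein-coding gene H4K16ac went past MOF at 478 of 713 (67.0%), with a median of 230 bp. At edges between genes it did so at 90 of 197 (45.7%), with a median of -13.0 bp. Edges inside an H3K36me3 region were passed at 228 of 335 (68.1%) and edges outside one at 340 of 575 (59.1%). Long reaches were more often outside: over 5 kb there were 2 edges inside H3K36me3 and 12 outside, and the upper quartile of the reaches past the edge was 1081 bp inside and 1910 bp outside. Seen the other way, MOF also ran past acetylation: at 791 of 1214 edges of H4K16ac regions with MOF (65.2%), by a median of 465 bp and at most 5502 bp, against 11954 bp for H4K16ac past MOF. Of those edges 452 faced another H4K16ac region under the same stretch of MOF, where MOF filled the gap between acetylated regions. A filled gap counts at both of its edges, so the 14 edges passed by over 5 kb are 11 stretches of H4K16ac, 3 of them filled gaps, and the 188 passed by over 1 kb are 166 stretches.

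**Figure D2:**
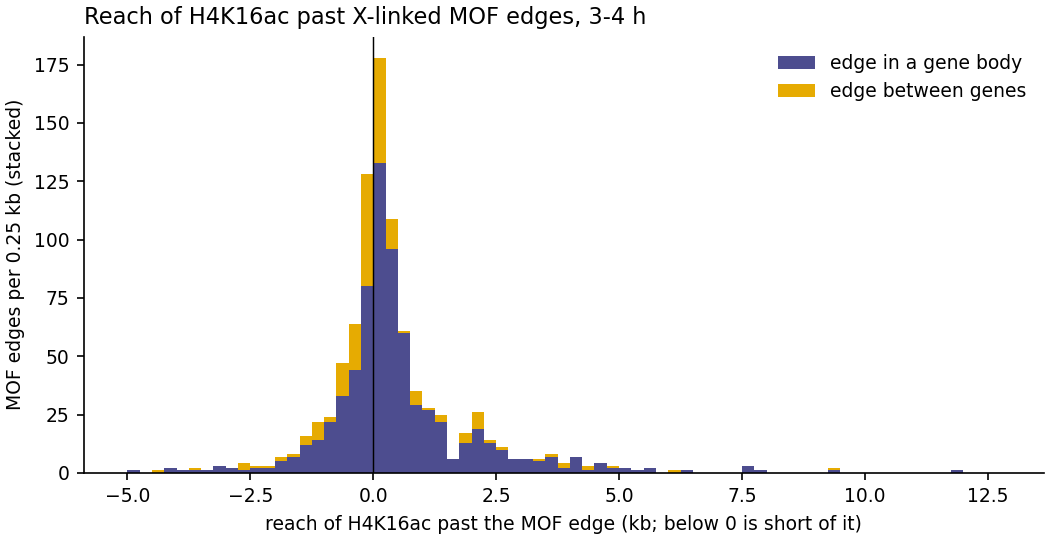
Reach of MNase H4K16ac past the 910 edges of X-linked MOF regions that held H4K16ac, in kb, as stacked counts of edges in 0.25-kb bins; values below 0 are stops inside the MOF region. Most edges lie within 1 kb of 0, and the longest reach, 11954 bp, is outward.

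Each edge is named by the gene that its MOF region overlaps most. The longest reach, 11.954 kb, ran leftward from the MOF region of CG17841 (X 10379941 to 10385485). Between the MOF regions over mxc, a nuclear protein of the histone locus body (X 9234875 to 9259488), and over Cfp1, a subunit of an H3K4 methyltransferase complex (X 9268799 to 9273145), H4K16ac filled the whole gap of 9.31 kb. The atypical MAP kinase gene Erk7 lies in that gap and was acetylated over all of its 6323 bp with no MOF. A gap of 7.686 kb between the MOF regions of CG4281 and CG16903 was filled in the same way. The MOF region over east, which codes for a nuclear protein, was followed by 7.875 kb of acetylation past its right edge, that over Caf1-180, a chromatin assembly factor subunit, by 7.637 kb on the left, and that over nej, the acetyltransferase CBP, by 6.151 kb on the left. CG5445 and CG2694 completed the 10 longest at 6.466 and 5.592 kb, the last being a filled gap as well. The deepest shortfall, -4953 bp, was at the left edge of the MOF region over the SUMO protease gene Ulp1, followed by those over wcy (-4252 bp), the kinase gene Tlk (-4066 bp), an antisense RNA, asRNA:CR46473 (-4027 bp) and wap (-3909 bp).

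Averaged over all edges, acetylation and H3K36me3 fell off differently outside MOF. At 3 kb inside the edge, 87.4% of 430 edges lay under H4K16ac and 91.2% under H3K36me3. At the edge itself the shares were 60.1% and 38.1% of 950. At 1 kb outside they were 36.2% and 14.9% of the 738 edges with no other MOF region up to there, at 5 kb 16.3% and 3.23% of 496, and at 10 kb 9.31% and 2.94% of 408. At 15000 bp they were 6.35% and 3.17% of 378, with H3K36me3 near its share at 5 kb. The sonicated H4K16ac list gave 67.4% at the edge, 45.4% at 1 kb, 13.7% at 5 kb and 6.13% at 10 kb. At 11-12 h the MNase H4K16ac list covered 80.4% of the places 1 kb outside the MOF edges of 3-4 h and 66.9% of those 5 kb outside. That later list covered 32.9% of the X as a whole.

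**Figure D3:**
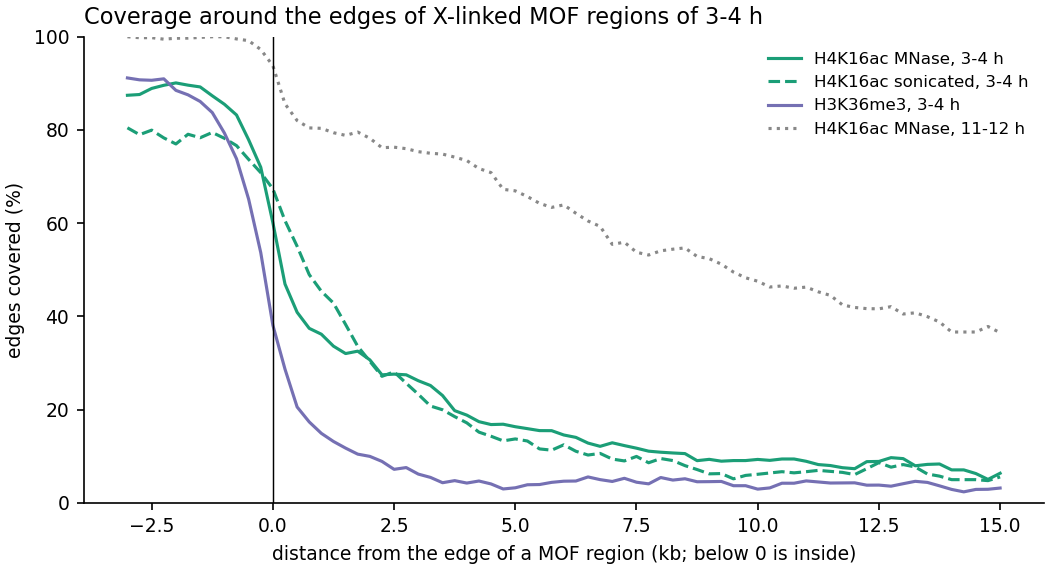
Share of X-linked MOF edges of 3-4 h (y axis, %) at which a point at the given distance (x axis, kb, below 0 inside the region) was covered by each list; points stop at the middle of the region inward and at the next MOF region outward. H4K16ac stays above H3K36me3 outside the edge, 36.2% against 14.9% at 1 kb.

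The bases called in 1 list alone had different sources. Of the MOF-only length, 0.0379 Mb (8.19%) was in the 20 regions with no H4K16ac, 0.228 Mb (49.2%) at 339 edges and 0.197 Mb (42.6%) in 226 gaps inside regions that were otherwise acetylated. Of the H4K16ac-only length, 0.517 Mb (49.2%) was in the 256 regions with no MOF, 0.443 Mb (42.2%) in 420 flanks past a MOF region and 0.0906 Mb (8.62%) in 74 bridges between MOF regions. Most of the H4K16ac regions with no MOF lay near it: their median distance to the nearest MOF region was 4157.5 bp, 50 of 256 lay within 1 kb and 154 within 5 kb, and the farthest lay 189447 bp away.

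Lists from other samples split these classes by gene-body mark and by complex. H3K36me3 covered 80.8% of the shared length, 75.8% of the MOF-only length and 21.4% of the H4K16ac-only length, against 13.8% of the X as a whole. MSL2 mononucleosomal regions covered 35.97%, 28.2% and 0.220% of the same classes, against 5.02% of the X. Sonicated H4K16ac covered 86.3% of the shared length, 41.4% of the MOF-only length and 57.7% of the H4K16ac-only length, against 15.8% of the X. Bases with MOF and no MNase acetylation thus had less acetylation in the second preparation too, though far more than the 2.21% of the length under neither list. These are shares of length with no interval, since neighbouring bases are not independent.

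**Figure D4:**
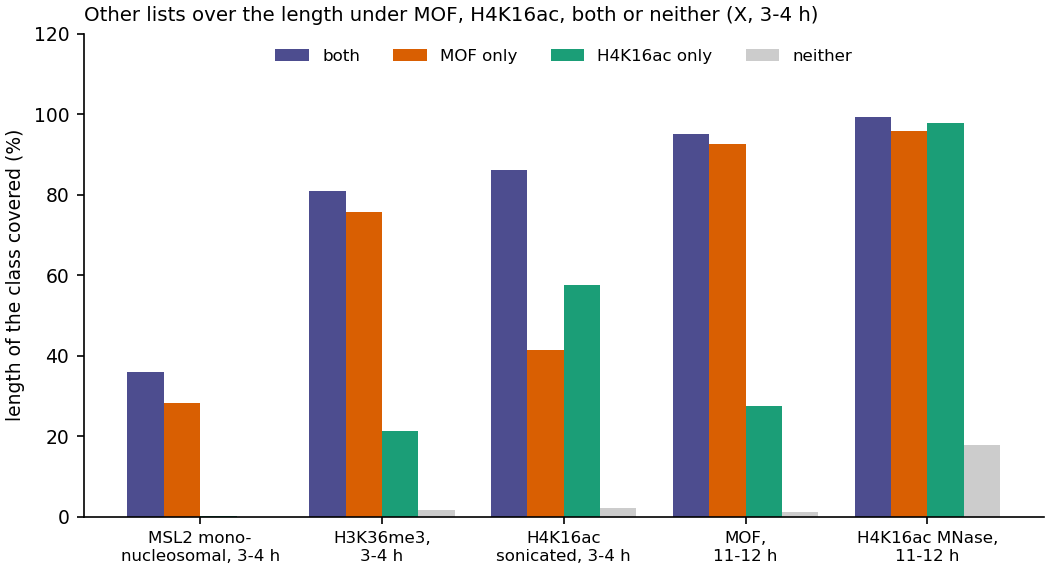
Share of the length (y axis, %) under both lists, MOF only, H4K16ac only or neither on the X at 3-4 h that was covered by each of 5 other lists. MOF-only length resembles shared length in H3K36me3 (75.8% and 80.8%) and H4K16ac-only length does not (21.4%).

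MSL2 was found on the MOF side of this division. The midpoints of the 238 X-linked MSL2 mononucleosomal regions fell in shared bases 215 times, in MOF-only bases 21 times, in H4K16ac-only bases never (0%, up to 1.59%) and outside both lists 2 times. The 116 subnucleosomal MSL2 peaks, 200 bp each and by their name from fragments shorter than a nucleosome, fell in shared bases 80 times, in MOF-only bases 32 times, in H4K16ac-only bases never (0%, up to 3.21%) and outside both 4 times. Of the subnucleosomal midpoints under MOF, 32 of 112 (28.6%, 21.0 to 37.5) were at bases without MNase acetylation, although such bases make up 13.9% of the MOF length. For mononucleosomal midpoints this was 21 of 236 (8.90%, 5.89 to 13.2). Of the 32 peaks, 27 lay in gaps inside acetylated MOF regions, and sonicated H4K16ac covered 44.9% of the length of these gaps. The MNase MOF and H4K16ac lists are both named as mononucleosomal.

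MOF regions with MSL2 were wider than those without. The mononucleosomal MSL2 regions are at least 2000 bp wide, and a wider MOF region meets one more easily. The part of this in the difference in width was not tested. The 201 with a mononucleosomal MSL2 region had a median width of 9774 bp, and 200 of them held H4K16ac (99.5%). The 274 without had a median width of 3599 bp, and 255 held H4K16ac (93.1%). Above 6 kb all 168 with MSL2 and all 47 without held H4K16ac, and from 3 to 6 kb 29 of 30 and 106 of 108 did. At or under 3 kb 3 of 3 with MSL2 and 102 of 119 without did, so 17 of the 20 regions with no MNase H4K16ac call were narrow regions without MSL2. The median cover by H4K16ac was 91.2% with MSL2 and 93.7% without, but the lower quartile was 80.3% with MSL2 and 70.2% without, and of the whole length 88.3% was covered with MSL2 and 81.7% without.

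The roX genes and mof itself, the 3 X-linked members of a list of MSL complex genes and Clamp, carried both. Of all X-linked protein-coding genes 46.8% had both, and 3 genes are too few to compare with that share. Over mof (X 5873840 to 5876853) the MOF region spanned 11.041 kb and the H4K16ac region 11.477 kb, each covering the whole gene. At roX2 (X 11579065 to 11580432) MOF covered the whole gene within a region of 13.022 kb, but the MNase H4K16ac region (X 11570791 to 11579431) ended inside it and covered 26.8% of its length. A subnucleosomal MSL2 peak (X 11580160 to 11580359) lay in the part without MNase acetylation, and the sonicated H4K16ac region of 20.145 kb covered the gene whole. Over roX1 (X 3857230 to 3862697) MOF covered 67.2% and MNase H4K16ac 58.6%, in 2 regions each, while sonicated H4K16ac again spanned the gene. No MSL2 region or peak of the 3-4 h lists touched roX1. The 2 X-linked members of the NSL complex list, mof and wds, a WD-repeat subunit also found in H3K4 methyltransferase complexes, had both marks, with 83.2% of wds under MOF and 82.1% under H4K16ac. Since mof is in both lists, wds is the only further gene here.

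Genes were classed by which list touched their body with at least 1 bp. Of 2197 X-linked protein-coding genes, 1028 had both (46.8%), 38 had MOF only (1.73%), 271 had H4K16ac only (12.3%) and 860 had neither (39.1%). Within genes that had both the marks covered most of the body, with a median of 97.1% under MOF and 98.4% under H4K16ac, and 349 genes lay wholly under both. More of the gene was under MOF than under H4K16ac in 313 of the 1028, less in 363 and the same number of bases in 352. The genes with most length under both were the ubiquitin ligase genes HERC2 (16.487 kb) and HUWE1 (16.409 kb), followed by rudhira (14.687 kb), the junction scaffold dlg1 (14.543 kb), nej (14.033 kb), the decay kinase nonC (13.176 kb), the clock translation factor tyf (12.767 kb), the actin-binding bif (12.737 kb), the endocytic receptor Cubn (12.644 kb) and CG32809 (12.482 kb). Cubn lay wholly under both lists, nonC wholly under MOF and tyf wholly under H4K16ac. In nej MOF covered 85.2% and H4K16ac 64.9%, in HUWE1 97.4% and 85.0%, and in CG32809 66.5% and 93.9%.

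Genes with H4K16ac and no MOF were mostly close to MOF. Their median distance to the nearest MOF region was 1958 bp, against 26742 bp for genes with neither. Of the 271, 91 lay within 1 kb of MOF, 185 within 5 kb and 8 lay over 50 kb away, while 81 were touched by an acetylated region that held MOF elsewhere and 190 by MOF-free regions alone. The most acetylated length without MOF was in f, forked, an actin bundler of bristles (10.934 kb, 22.8% of the gene, in 5 regions). It was followed by CG4313 (10.908 kb), the kinesin adaptor Unc-76 (9.309 kb), the NAD synthetase Nadsyn (7.86 kb), the dynamin shi (7.205 kb), the receptor Lrp4 (7.093 kb), Erk7 (6.323 kb), CG12065 (5.842 kb), chas (5.823 kb) and the yolk protein receptor yl (5.706 kb). H3K36me3 touched f, Unc-76, Nadsyn and shi but none of the other 6. Sonicated H4K16ac touched 9 of the 10, all but shi. It touched 77.9% of all 271 such genes and 59.2% of all X genes. At 11-12 h MOF was listed over f, Unc-76, Nadsyn and shi, and yl alone of the 10 had no MNase H4K16ac.

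As single regions, the widest with acetylation and no MOF lay over the Golgi protein gene Tmf (9.317 kb, X 6842203 to 6851519), CG12065 (9.191 kb), CG14204 (7.767 kb), the mitochondrial ADP/ATP carrier Ant2 (6.158 kb), CG4313 (5.741 kb), yl (5.706 kb), the cytoskeletal pigs (5.466 kb), Coq8 of coenzyme Q synthesis (5.432 kb), shi (5.246 kb) and CG17162 (4.986 kb). None of the 10 held MSL2 of either kind, 3 held H3K36me3 and 9 held sonicated H4K16ac. Among all 256 MOF-free regions 0.781% held mononucleosomal MSL2 and 0% subnucleosomal MSL2, 31.6% held H3K36me3 and 59.4% sonicated H4K16ac. The 10 widest lay between 874 and 9375 bp from the nearest MOF region.

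Genes with MOF and no H4K16ac were few, and H3K36me3 touched 31 of the 38. The longest MOF stretches were in raskol, a Ras GTPase-activating protein (5.111 kb), ph-d, a Polycomb protein (4.161 kb), wap (3.84 kb), CG44774 (3.233 kb), the cytoplasmic actin Act5C (2.921 kb), the glucosidase GCS2alpha (2.771 kb), CG11596 (2.711 kb), the receptor tyrosine phosphatase Ptp4E (1.823 kb), CG6398 (1.64 kb) and the meiotic gene hdm (1.615 kb). H3K36me3 touched all 10, and so did MOF and MNase H4K16ac of 11-12 h. Sonicated H4K16ac of 3-4 h touched 8 of them, leaving out raskol and GCS2alpha. Over all 38 genes with MOF only it touched 21 (55.3%), against 59.2% of all X genes. Of the 38 such genes, 27 lay within 1 kb of an H4K16ac region, and 25 were touched by a MOF region that was acetylated elsewhere. MOF covered a median of 15.7% of the length of these genes. The labels do not say how reads that match several places were treated, and values of genes with close copies, such as ph-d and RpS14a, are uncertain for that reason; any part of this in the classes was not tested.

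Among the 20 MOF regions with no H4K16ac the 10 widest lay over raskol (5.168 kb, X 17746897 to 17752064), CG44774 (3.233 kb), GCS2alpha (3.005 kb), CG11596 (2.884 kb), the HMG protein Dsp1 (2.624 kb), ph-d (2.11 kb), Ptp4E (1.823 kb), the cell-cycle kinase Cdk7 (1.692 kb), CG32767 (1.672 kb) and CG6398 (1.64 kb). The others were 2 more over ph-d and single regions over Atg5, CG18259, the Brahma complex subunit Bap111, CG5445, the histone variant gene His3.3B, Gem4b, CG32756 and the POU factor acj6. Mononucleosomal MSL2 was listed in 1 of the 20, that over CG44774 (5.00%, 0.888 to 23.6), against 200 of the 455 acetylated MOF regions (44.0%). Width differed too. At or under 3 kb MSL2 was in 0 of 17 MOF regions without an MNase H4K16ac call and in 3 of 105 with one. With so few MSL2 regions at that width, these counts cannot show whether the contrast holds there. The part of width in the contrast was not tested. H3K36me3 was listed in 16 of the 20 (80.0%), against 426 of 455 (93.6%), and sonicated H4K16ac in 8 (40.0%), against 433 of 455 (95.2%). At 11-12 h MNase H4K16ac was listed in 19 of the 20 and MOF in 17, against 455 and 442 of the 455 acetylated ones.

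The later lists and the other marks were set beside the gene classes. H3K36me3 touched 957 of 1028 genes with both (93.1%, 91.4 to 94.5), 31 of 38 with MOF only (81.6%, 66.6 to 90.8), 124 of 271 with H4K16ac only (45.8%, 39.9 to 51.7) and 70 of 860 with neither (8.14%, 6.49 to 10.2), and 53.8% of all X genes. MOF of 11-12 h touched 1012 of the genes with both (98.4%), 36 with MOF only (94.7%), 118 with H4K16ac only (43.5%, 37.8 to 49.5) and 35 with neither (4.07%, 2.94 to 5.61), and 54.7% of all. MNase H4K16ac of 11-12 h touched every gene with both, 37 of 38 with MOF only (97.4%), 270 of 271 with H4K16ac only (99.6%) and 301 with neither (35.0%). Over all X genes its share was 74.5%. Gene length differed between the classes, with medians of 2925.5, 4258.5, 2499 and 1853 bp. In the shortest, middle and longest tertile of X genes H3K36me3 touched 89.1%, 93.8% and 94.9% of genes with both and 53.5%, 44.1% and 40.2% of genes with H4K16ac only, so the gap was present at each length. These shares were not tested.

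The gene lists differed in how many X-linked members carried the marks, which is given as counts with no test. The classes rest on the MNase H4K16ac list, and the sonicated list is given beside part of them. None of the 8 X-linked genes of X counting and sex determination, among them sc, sisA, run, upd1 and Sxl, had either mark, although a MOF region lay 185 bp from snf and 850 bp from Sxl, and sonicated H4K16ac touched these 2 genes. Of 13 genes of early patterning and cellularisation, which share run and Sxl with that list, 10 had neither, including gt, oc, btd, nullo, sog, N and zld; arm, the Drosophila beta-catenin, and the kinase hep had both, and bnb had 154 bp of MOF. Sonicated H4K16ac touched 2 of the 10, zld and Sxl, and also bnb. These compare with 39.1% of X genes with neither and 46.8% with both. Of 14 X-linked cytoplasmic ribosomal protein genes 6 had both (RpL22, RpL35, RpL7A, RpS6, RpS15Aa and RpS5a), RpS19a had MOF only, RpL36, RpS28b and RpL37-1 had H4K16ac only, and RpL17, RpS14a, RpS14b and RpS10b had neither. H3K36me3 touched all 14, and sonicated H4K16ac all but RpL17. Of all X genes 53.8% were touched by H3K36me3 and 59.2% by sonicated H4K16ac, and 12.3% had H4K16ac only. Of 6 proteasome genes, Rpt3, Rpt4, Rpt6 and Prosalpha4 had both, with Rpt4 and Rpt6 wholly under both marks, and Rpn13R and Prosbeta2R1 had neither. Sonicated H4K16ac touched the 4 with both and not the other 2.

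Among 12 classic pigment and enzyme genes 6 had both and 4 neither, close to the 46.8% and 39.1% of all X genes. Those with both were g, rb, car, sn, and the pentose phosphate enzymes Pgd and Zw. H4K16ac alone lay over f and over v, tryptophan dioxygenase, with 1286 bp at a distance of 24199 bp from MOF. Neither mark touched w, the pigment precursor transporter, y, m or VhaAC39-1, a subunit of the vacuolar proton pump, and of these 4 sonicated H4K16ac touched VhaAC39-1. Zw (X 19667252 to 19672353) lay wholly under an H4K16ac region of 18.609 kb, while 2 MOF regions covered 60.9% of it from both ends. Among 12 neural genes elav and nonA had both, shi, per, rut and fne had H4K16ac only (271 of the 2197 X genes did), and para, cac, Appl, Sh, eag and dnc had neither, with sonicated H4K16ac over Appl alone of these 6. In per, a clock gene, H4K16ac covered 4009 bp (55.7%), part of it from a region of 35.683 kb that begins inside the gene, and MOF began 623 bp away. In rut and fne H4K16ac covered 1000 and 605 bp of genes of 38596 and 32941 bp.

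Of 14 odorant and gustatory receptor genes, which act in sensory neurons of later stages, 9 had neither and Gr9a had H4K16ac only. Or2a, Gr5a, Or7a and Gr8a had both, while 46.8% of all X genes had both, 12.3% H4K16ac only and 39.1% neither. H3K36me3 touched Or2a and Gr8a, against 53.8% of all X genes. Sonicated H4K16ac touched Or2a, Or7a and Gr8a but not Gr5a or Gr9a. Of the 9 with neither it touched Gr2a, and of all X genes 59.2%. Another protein-coding gene lay within 1 kb of all 4 receptor genes with both marks, of Gr9a and of 8 of the 9 with neither. Whether these neighbours carried the marks was not counted.

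**Figure D5:**
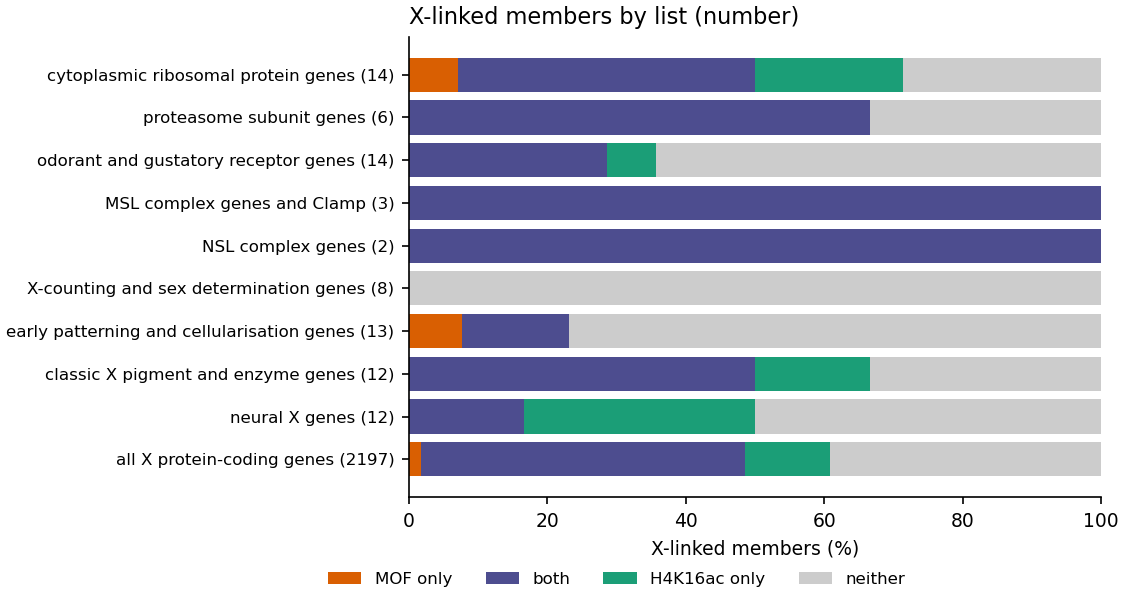
X-linked members of 9 gene lists, with their number in brackets, and all 2197 X-linked protein-coding genes, as the percentage (x axis) with MOF only, both marks, H4K16ac only or neither. The 8 genes of X counting and sex determination have neither mark, and 39.1% of all X genes have neither.

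Set against 11-12 h, more of the X-linked H4K16ac regions and fewer of the MOF regions of 3-4 h had the partner. The share of X-linked H4K16ac regions with MOF was 70.3% at 3-4 h and 42.9% at 11-12 h (358 of 834, 39.6 to 46.3), a difference of 27.4 points (22.8 to 31.9). The share of MOF regions with H4K16ac was 95.8% at 3-4 h and 99.0% at 11-12 h (521 of 526), a difference of -3.26 points (-5.53 to -1.33). In length, 86.1% of MOF lay under H4K16ac at 3-4 h and 99.0% at 11-12 h, and 73.2% of H4K16ac lay under MOF at 3-4 h and 47.3% at 11-12 h. At 11-12 h MOF covered 15.7% of the X and H4K16ac 32.9%, and the MNase dose differed between the stages, so stage and digestion cannot be told apart. Each stage is 1 pooled list per mark, so there is no replicate of a stage: the intervals cover counting error over regions of these lists, and no p is given for the stages.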

How the data were processed

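The authors deposited 12 lists of regions, of which 8 were used, each with the start and end of a region in bp and no score. Bowtie2 2.2.9, HOMER and SAMtools, with dm6 as the build, are listed per the submitters' processing notes, which give no roles. Peak calling settings and the use of inputs were not stated. Each list pools replicates: the labels name 1 list for all samples of a group. Depth is unknown. Genes came from RefSeq on Release 6 (the assembly of dm6), with 2197 protein-coding genes on the X; the table has no strand, so promoters, gene starts and the planned promoter motifs were not analysed here. A region took the name of the gene it overlaps most. Intervals are Wilson for shares, Newcombe for differences and binomial for medians. Fisher's exact tests, two-sided, were adjusted by Benjamini-Hochberg over 4 tests with 0.05 as the threshold; they treat regions of pooled lists as the units. Named genes were the 10 leading ones of each ranking by width, reach or length, and the members of the 9 lists; the other 10 of the 20 MOF regions without H4K16ac, and the 5 deepest shortfalls, were named after their values were seen. Members and lists were chosen with earlier results of these data known. The interval code was tested on simulated data and gave the same lengths as counting single bases in 20 of 20 runs. The work used Python 3.11.15 with scipy 1.17.1, pandas 2.3.3 and numpy 2.4.6, and figures were drawn by matplotlib 3.10.9.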

Additional observations from a re-analysis of the deposited data

Results flagged for a closer look

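The share of X-linked H4K16ac regions with MOF differed by 27.4 points between 3-4 h and 11-12 h and that of MOF regions with H4K16ac by -3.26 points. Counted over regions, an exact test put both past its threshold, but it compares 1 pooled list per stage and regions are not replicates of a stage. The MNase dose also differed between the stages. Outside the 5 arms analysed, the MOF list of 3-4 h has 0 regions on chromosome 4 and the MNase H4K16ac list 11; on chromosome Y the MOF list has 2 regions and the H4K16ac list 0.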

How the results depend on the processing

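All 4 differences of shares kept their direction in each of the 22 alternatives computed for them. For the X against the autosomes the exact test over regions also kept its side of the threshold. For the stages the alternatives reuse the same pooled lists, so they add no replicate of a stage, and the MNase dose still differed. The differences ranged from 55.3 to 98.4 points (MOF regions, X against autosomes), 62.7 to 74.4 (H4K16ac regions, X against autosomes), -4.78 to -1.57 (MOF regions, 3-4 h against 11-12 h) and 20.4 to 28.8 (H4K16ac regions, 3-4 h against 11-12 h). The 98.4 points came from the widest 50% of each list, which kept 255 X-linked MOF regions and very few autosomal ones. The sonicated list was not set against 11-12 h. The share of the X-linked MOF length under H4K16ac was 88.1% with regions within 1 kb joined, 85.5% in the widest 50% of each list, 80.0% with sonicated H4K16ac and 85.3% without regions of 1000 bp, the last chosen after seeing the data. The share of the H4K16ac length under MOF was 73.5%, 64.3%, 72.2% and 74.1% in the same order. The median reach depended most on the choice: 291.5 bp with regions joined, 50.0 bp in the widest 50%, 431 bp with sonicated H4K16ac, 188 bp when not stopped at the next MOF region and 287.5 bp when followed across gaps of 1 kb; the cause was not tested. With 1 kb added to genes, 21 genes had MOF only in place of 38. Other gene counts stayed within 1.5 times in every alternative. No paired analysis was possible because each list pools its replicates, and for the same reason no replicate could be left out.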

Other observations

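On the autosomes MOF touched 46 protein-coding genes at 3-4 h, 19 of them with MNase H4K16ac and 27 without, while 1030 of 11645 genes had H4K16ac only (8.84%, 8.34 to 9.37). Genes with both, named after their values were seen, included mRpL28 and mRpS33 of the mitochondrial ribosome, the Argonaute gene AGO1, the RNA-processing gene Ars2 and the elongation factor gene ear. Genes with MOF only included numb, a cell-fate determinant, Not1 of the deadenylase complex, dom, a chromatin remodeller, Bruce, an inhibitor of apoptosis, and E2f1, a cell-cycle transcription factor. On the X the counts were 1028 genes with both and 38 with MOF only.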
